A study of Mus musculus with 5 samples.

Results

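The genes described here are receptors, ligands and target genes of the Notch pathway, read in sciatic nerves of newborn mice with and without the transcription factor Ebf2, a member of the early B cell factors. They were chosen by symbol: every probe set whose only annotated symbol was Hes1, Hes5, Hey1, Hey2, Heyl, Nrarp, Notch1, Notch3, Jag1 or Dll4. Of these 10 genes, 9 had a probe set among the 10361 of the table, 1 each, and Nrarp was not analysed here. The wild-type group (WT) held 3 pools of Ebf2+/+ nerves, numbered 1, 9 and 11, and the knockout group (KO) held 2 pools of Ebf2-/- nerves, numbered 2 and 4. All pools were of postnatal day 2, on a C57Bl6N background, from pups of heterozygous parents, and each pool of 12 nerves gave RNA for 1 array. The sources used here do not say which exons the allele removes, how many animals or litters a pool stands for, or that the loss was limited to a cell type. A whole nerve holds vessels and sheath cells beside Schwann cells and axons. Levels are log2 values, and a difference is KO minus WT on that scale. Where values of all pools are listed, they stand in the order WT pools 1, 9 and 11, then KO pools 2 and 4.

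Notch receptors are membrane proteins that a ligand of the Delta or Jagged family on a neighbouring cell activates. Proteases then free the intracellular part of the receptor, which enters the nucleus and joins the DNA-binding protein RBPJ and a Mastermind coactivator to switch on target genes, above all the Hes and Hey repressors. In developing peripheral nerve the pathway is known to promote the formation and division of immature Schwann cells and to oppose myelination, and in vessels it acts in arterial endothelium and in the mural cells that surround it, the pericytes and smooth muscle cells.

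Upstream sequence of Hey2 and Hes5 is shown because these had the highest and the lowest difference of the 9 measured genes. These were 1.28 (SE 0.33) for Hey2 and -0.099 (SE 0.18) for Hes5. Both also carry the letters GTGGGAA, which RBPJ recognises. The stretches are the 250 bases before the annotated start of each gene, from RefSeq on GRCm38.p6, written 5′ to 3′ along the gene's strand with matches in capitals on either strand. Hey2 lies on the minus strand (chr10:30842784-30843033) and Hes5 on the plus strand (chr4:154960673-154960922).
Hey2: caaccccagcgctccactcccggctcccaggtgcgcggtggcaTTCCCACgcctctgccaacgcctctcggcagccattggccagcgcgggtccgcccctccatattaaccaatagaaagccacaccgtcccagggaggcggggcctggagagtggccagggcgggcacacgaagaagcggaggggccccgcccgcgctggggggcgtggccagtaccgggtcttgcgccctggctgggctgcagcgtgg
Hes5: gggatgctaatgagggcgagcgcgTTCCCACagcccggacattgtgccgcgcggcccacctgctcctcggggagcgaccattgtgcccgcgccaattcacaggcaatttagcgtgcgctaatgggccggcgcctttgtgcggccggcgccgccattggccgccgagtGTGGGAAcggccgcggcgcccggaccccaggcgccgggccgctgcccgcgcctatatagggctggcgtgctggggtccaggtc
In Hey2 the match begins 207 bases before the start on the opposite strand, and another begins 4 bases before the start and runs across it, so that it is cut off in the stretch shown. In Hes5 the matches begin 226 bases before the start on the opposite strand and 83 bases before it on the gene's strand. Promoter windows of 250 bases before to 50 bases after the start were found for 7 of the 10 genes (Nrarp, Notch1, Notch3, Dll4, Jag1, Hes5 and Hey2). Among these, Hey2 and Hes5 held GTGGGAA, against 6.38% of 32851 windows of mouse genes. A match is a run of letters, not evidence of binding.

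The arrays had medians from 8.93 to 9.11. Ebf2 stood at 11.14 to 11.55 in the WT pools and at 8.74 and 9.25 in the KO pools (difference -2.37, SE 0.19, limma adjusted p = 4.97e-07), and every array lay on the side of its label. That call was lost in 5 of 11 alternatives, all with the same sign (-2.12 to -2.62 over the alternatives): its adjusted p was 0.0657 when WT pool 1 was left out, 0.119 when KO pool 2 was, 0.782 when KO pool 4 was, 0.560 when variances were not moderated and 0.857 when WT pool 1 was the only control. WT pools 9 and 11 stood apart in genes of skin and muscle. The mean of 11 keratinocyte genes was 9.36 and 8.72 in these pools, 7.23 in WT pool 1, and 7.27 and 7.55 in KO pools 2 and 4. The mean of 14 skeletal muscle genes was 11.70 and 11.47 in WT pools 9 and 11, 10.08 in WT pool 1, and 10.61 and 10.80 in the KO pools. Differences of the Notch genes are therefore given also against WT pool 1 alone. That pool did not match the KO pools in muscle genes either. All 14 were higher in KO than in WT pool 1 (median 0.60), as were all 11 keratinocyte genes (median 0.09), against 50.8% of all probe sets. The labelled tissue was checked by 12 Schwann cell genes, of which 7 were measured, with no value below 9.75 in any pool. Their mean was 11.78, 11.92 and 11.86 in the wild-type pools and 11.56 and 11.12 in the knockout pools.

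Notch genes lay higher in the KO pools than in the WT mean in 8 of 9 cases, led by Hey2, Notch3 and Jag1, but limma called 0 of them at adjusted p below 0.05. Over all probe sets 0.676% were called. At unadjusted p below 0.05, 3 of 9 genes were higher in KO (33.3%) and 0 lower, where 7.14% of all probe sets were higher and 7.17% lower. Both KO pools exceeded all 3 WT pools for the same number, 3 of 9 genes (33.3%), namely Hey2, Notch3 and Jag1, against 17.5% of all probe sets. A positive difference was found in 49.8% of all probe sets. The median difference of the 9 genes was 0.30, beside -0.0017 over all probe sets. Against WT pool 1 alone the median was 0.096 with 7 of 9 genes higher, where 50.8% of all probe sets were higher. The median was 0.073 without KO pool 2, 0.17 without WT pool 11 and 0.20 without WT pool 9. The count of Notch genes at unadjusted limma p below 0.05, in either direction, also depended on the WT pools. It was 1 of 9 without WT pool 9, 3 without WT pool 11 and 4 without WT pool 1. Of all 10361 probe sets, 429, 852 and 1647 passed in these fits.

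**Figure D1:**
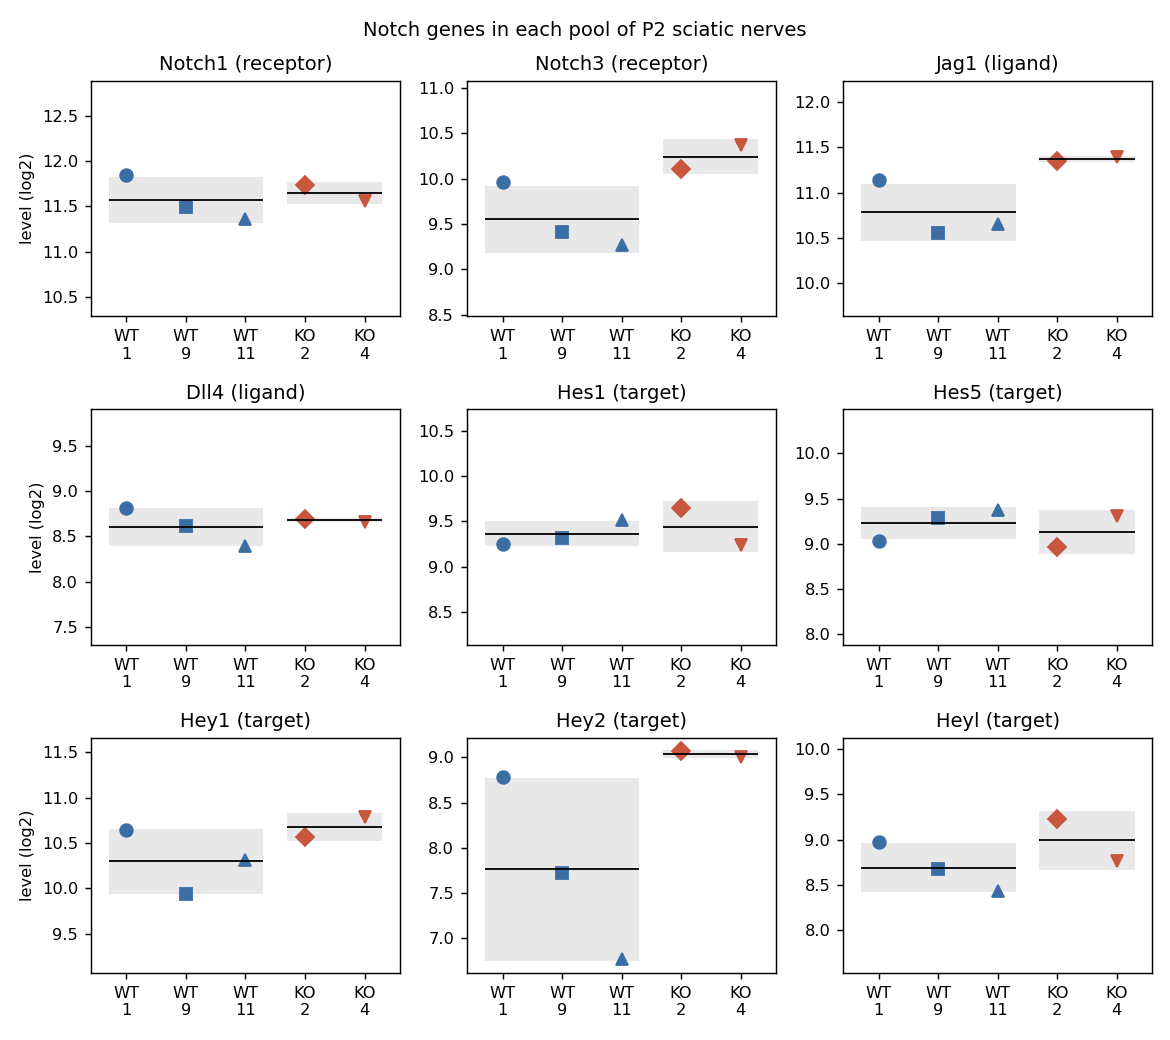
Level of each of the 9 Notch genes (log2, vertical axis) in each pool (horizontal axis), WT in blue and KO in red, with the group mean as a line and 1 SD to either side as a grey band; every panel spans the same range of log2 units. The KO points of Hey2, Notch3 and Jag1 lie above all WT points, and Hey2 in WT pool 11 (6.78) is far below WT pool 1 (8.79).

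The receptors differed from each other. Notch3, the receptor best known from smooth muscle cells and pericytes, read 9.97, 9.41 and 9.27 in the wild-type pools and 10.10 and 10.38 in the knockout pools. The groups did not overlap, with WT pool 1 nearest to the KO pools, only 0.14 below the lower one. Its means were 9.55 ± 0.37 (SD, n = 3) for WT and 10.24 ± 0.19 (SD, n = 2) for KO, which is a 1.61-fold difference (log2 0.69, SE 0.20, 95% interval 0.28 to 1.10) with adjusted p = 0.105. Against WT pool 1 alone it was 0.27.

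Notch1, a receptor of many cell types, read 11.85, 11.50 and 11.36 in the wild-type pools and 11.74 and 11.56 in the knockout pools. Both KO values fell inside the WT range. The difference was 0.079 (SE 0.18, 95% interval -0.30 to 0.46, adjusted p = 0.833), and it was -0.20 against WT pool 1 alone. The interval holds differences of either sign, so these arrays do not show that Notch1 was alike in the genotypes.

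Among the ligands, Jag1, which encodes Jagged-1 and is made in vessel walls and in many other tissues, stood higher in both KO pools. It read 11.14, 10.55 and 10.65 in the wild-type pools and 11.35 and 11.40 in the knockout pools. The KO pools were close together and above every WT pool. The means were 10.78 ± 0.31 (SD, n = 3) for WT and 11.37 ± 0.037 (SD, n = 2) for KO, which is a 1.51-fold difference (log2 0.59, SE 0.19, 95% interval 0.20 to 0.98, adjusted p = 0.142). Against WT pool 1 alone the difference was 0.23.

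Dll4, the Delta ligand of arterial and sprouting endothelium, read 8.81, 8.61 and 8.39 in the wild-type pools and 8.69 and 8.66 in the knockout pools. The KO values lay between those of WT pools 1 and 9. The difference was 0.073 (SE 0.17, 95% interval -0.29 to 0.44, adjusted p = 0.840), and it was -0.13 against WT pool 1 alone. For the Notch receptors and ligands together, the KO mean lay above the WT mean in 4 of 4, against 49.8% of all probe sets. The intervals of Notch1 and Dll4 held differences of either sign. The KO mean lay above WT pool 1 in 2 of 4, Notch3 and Jag1, against 50.8% of all probe sets.

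Hey2, a repressor of the Hey family known from arterial endothelium and smooth muscle, showed the widest spread of the 9 genes. It read 8.79, 7.72 and 6.78 in the wild-type pools and 9.07 and 9.01 in the knockout pools. The KO pools lay together above all WT pools, while the WT pools spanned 2.01 log2 units, more than the difference between the genotypes. The means were 7.76 ± 1.01 (SD, n = 3) for WT and 9.04 ± 0.045 (SD, n = 2) for KO, which is a 2.43-fold difference (log2 1.28, SE 0.33, 95% interval 0.59 to 1.97) with adjusted p = 0.0719. It came to 0.25 against WT pool 1 alone and to 0.79 without WT pool 11. With a prior variance that follows the mean level, Hey2 was called (adjusted p = 0.0369), in a fit that called 158 probe sets in all. Over the 11 alternatives its adjusted p ran from 0.0369 to 0.857.

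Hey1, a close relative of Hey2 that is widely induced by Notch, read 10.65, 9.93 and 10.32 in the wild-type pools and 10.57 and 10.79 in the knockout pools. WT pool 1 lay between the KO pools, so the groups overlapped. The difference was 0.38 (SE 0.20, 95% interval -0.029 to 0.79, adjusted p = 0.387), 0.20 without WT pool 9 and 0.032 against WT pool 1 alone.

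Heyl, the third member of the Hey family and a gene of mural cells, read 8.97, 8.67 and 8.43 in the wild-type pools and 9.23 and 8.76 in the knockout pools. The higher KO pool exceeded all WT pools and the lower one did not. The difference was 0.30 (SE 0.19, 95% interval -0.10 to 0.70, adjusted p = 0.491), 0.068 without KO pool 2 and 0.021 against WT pool 1 alone.

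The Hes genes showed small differences. Hes1, a repressor that Notch switches on in many progenitor cells, read 9.25, 9.32 and 9.52 in the wild-type pools and 9.65 and 9.24 in the knockout pools. The KO pools stood at the top and at the bottom of all 5 values. The difference was 0.080 (SE 0.18, 95% interval -0.29 to 0.45, adjusted p = 0.828), or -0.12 without KO pool 2 and 0.19 against WT pool 1 alone.

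Hes5, a Notch target best known from neural and glial progenitors, read 9.04, 9.28 and 9.38 in the wild-type pools and 8.96 and 9.31 in the knockout pools. It was the 1 gene of the 9 with a lower KO mean, and its groups overlapped. The difference was -0.099 (SE 0.18, 95% interval -0.47 to 0.27, adjusted p = 0.787), with the opposite sign without KO pool 2 (0.073) and against WT pool 1 alone (0.096). Of the 5 targets measured, 4 had a KO mean above the WT mean, against 49.8% of all probe sets. Limma called 0 of the 5, against 0.676% of all probe sets.

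**Figure D2:**
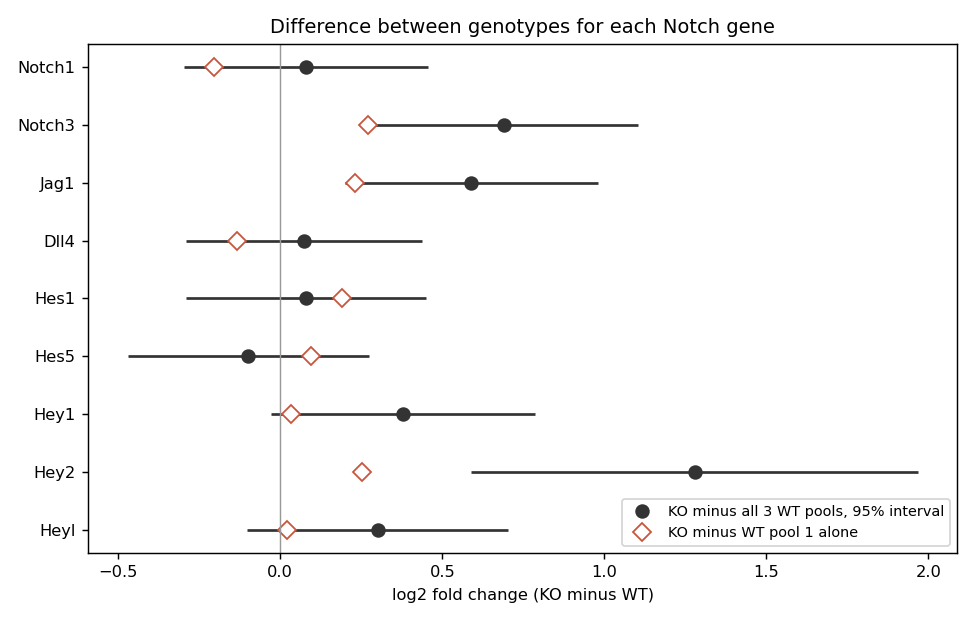
Difference between genotypes (log2 fold change, KO minus WT, horizontal axis) of each Notch gene, as black points with the 95% interval of the limma fit over all 5 pools, not adjusted for multiple tests, and as open diamonds for the KO mean minus WT pool 1 alone. The intervals of Notch3, Jag1 and Hey2 lie above 0, and against WT pool 1 the differences of these genes are 0.27, 0.23 and 0.25.

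The wild-type pools differed widely among themselves. WT pool 1 stood above WT pools 9 and 11 in 7 of 9 genes, and the exceptions were Hes1 and Hes5. In 8 of 9 genes the range of the WT pools exceeded the size of the difference between the genotypes, with Jag1 as the exception (0.588 against 0.590). WT pool 11 was the lowest pool for 5 genes and WT pool 9 for 2. Averaged over the 9 genes, the level was 9.83, 9.44 and 9.34 in the wild-type pools and 9.93 and 9.90 in the knockout pools. KO pools 2 and 4 thus lay close to WT pool 1 and above the other WT pools.

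The mean levels of vessel cell markers were below those of the other 3 pools in WT pools 9 and 11. So were the levels of every measured Notch gene except Hes1 and Hes5. The means of the vessel markers did not have both KO pools above WT pool 1, though single endothelial genes did. In bulk RNA, fewer cells of a type and less RNA per cell cannot be told apart. All 16 endothelial genes were measured, with no value below 8.26. In KO 16 of 16 were higher, against 49.8% of all probe sets (median 0.43, or 0.13 against WT pool 1 alone). At unadjusted limma p below 0.05, 9 of 16 were higher (56.25%, against 7.14% of all probe sets), and 0 were called. Both KO pools lay above all WT pools for 8 of 16 (50%, against 17.5% of all probe sets). The mean of the 16 genes ranged from 9.76 to 10.23 in the WT pools, lowest in WT pool 11, and was 10.42 and 10.20 in KO pools 2 and 4. Of 11 mural genes 9 were measured, with no value below 7.60. In KO 7 of 9 were higher (77.8%, against 49.8% of all probe sets), with a median of 0.38, or -0.026 against WT pool 1 alone. Their mean was 10.75, 10.24 and 10.03 in the wild-type pools and 10.73 and 10.76 in the knockout pools. Both KO pools lay above all WT pools for 1 of the 9 (11.1%, against 17.5% of all probe sets). The lower genes were Cspg4, a pericyte proteoglycan, at -0.29 (-0.38 against WT pool 1 alone), and Des, which is also a muscle gene, at -0.32 (0.58 against WT pool 1 alone). Pdgfrb, a receptor that marks mural cells, differed by 0.097 (-0.026 against WT pool 1 alone). Without Des the mural median was 0.55, and -0.027 against WT pool 1 alone. The part of vessel cells in the differences of the Notch genes was not tested.

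Smooth muscle genes had the widest differences of the mural list. The contractile genes Acta2, Myh11, Tagln and Cnn1, picked after their values were seen, averaged 10.62, 9.35 and 8.93 in the wild-type pools and 10.37 and 10.61 in the knockout pools. Their median difference was 0.86, or -0.072 against WT pool 1 alone, and limma called 0 of 4. Over the 13 measured genes of dividing cells the mean was 11.04, 10.57 and 10.51 in the wild-type pools and 11.09 and 11.13 in the knockout pools. Like the means of the vessel markers, it was lowest in WT pools 9 and 11. In KO 12 of 13 were higher (92.3%, against 49.8% of all probe sets). The median was 0.44, or 0.10 against WT pool 1 alone. At unadjusted limma p below 0.05, 8 of 13 were higher (61.5%, against 7.14%), and 0 were called. Both KO pools lay above all WT pools for 6 of 13 (46.2%, against 17.5%). The part of dividing cells in the differences of the Notch genes was not tested. Of the 7 Schwann cell genes 6 were lower in KO (median -0.47, or -0.44 against WT pool 1 alone), where 49.8% of all probe sets were higher. Beside 0.676% of all probe sets called in either direction, 2 of the 7 were called lower. These were Egr2, a transcription factor of myelination (-1.13, SE 0.22, adjusted p = 0.0181), and Mag, a myelin glycoprotein (-0.99, SE 0.19, adjusted p = 0.0166). The Schwann median was -0.19 without KO pool 4 and -0.79 without KO pool 2. Egr2 and Mag were not called after median centring, after quantile normalization or without WT pool 9. In each of these fits 1 probe set of the table was called, that of Ebf2. When variances were not moderated, 0 probe sets were called. The part of the Schwann cell difference in the values of the Notch genes was not tested.

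**Figure D3:**
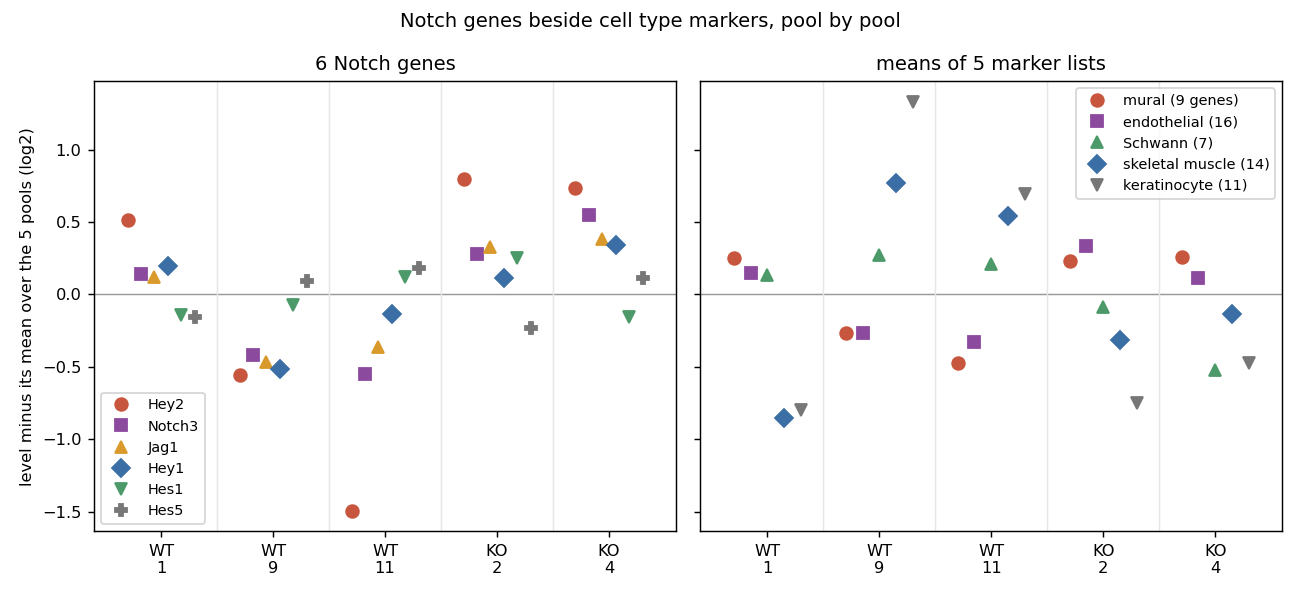
Level minus the mean over the 5 pools (log2, vertical axis) in each pool (horizontal axis), for 6 Notch genes on the left and for the means of 5 marker lists on the right; points are spread sideways within a pool so that they can be told apart. Hey2, Notch3, Jag1, Hey1 and the mural and endothelial lists are below their means in WT pools 9 and 11. In the other 3 pools these genes and lists are above their means. The keratinocyte and skeletal muscle lists do the opposite in every pool.

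Genes with the most similar profile were sought by the root-mean-square difference between profiles centred on their own means, over the 5 pools and 9402 other genes. Nearest to Hey2 were Myh11, the smooth muscle myosin heavy chain (0.20 log2 units), Tagln, the smooth muscle protein transgelin (0.23), Raet1d, a ligand of a natural killer receptor (0.27), Eln, for elastin of vessel walls (0.28), and the adhesion receptor gene Adgrl2 (0.30). Raet1d had a difference of 1.43 and was called (adjusted p = 0.0309), with 0.47 against WT pool 1 alone, and the other 4 were not called. Nearest to the mean profile of the 9 Notch genes were Mgp, for matrix Gla protein (0.027), the histone gene H2bc8 (0.028), Slbp, which binds histone messenger RNA (0.028), the cadherin gene Fat4 (0.039) and Cald1, for caldesmon (0.040). The differences of these 5 genes ran from 0.34 to 0.41, and limma called 0 of them.

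The rest of the pathway lay slightly higher in KO, with 0 genes called. Of 54 other genes of the pathway 25 were measured and 29 were not analysed here. Of the 25, 19 were higher (76%, against 49.8% of all probe sets) and 6 lower, 4 were higher at unadjusted p below 0.05 (16%, against 7.14%) and 0 lower. Both KO pools exceeded all WT pools for 13 of 25 (52%, against 17.5%) and lay below all of them for 2 (against 13.3% of all probe sets). The median difference was 0.21, and 0.13 against WT pool 1 alone, where 18 of 25 were higher (72%, against 50.8% of all probe sets). By role, 1 of 1 receptor, 3 of 3 ligands, 5 of 5 genes of receptor processing and 2 of 2 sugar transferases were higher. So were 4 of 5 nuclear factors, 3 of 6 regulators or trafficking genes and 1 of 3 further targets.

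Maml2, a Mastermind coactivator of the RBPJ complex, had the widest difference of these 25 genes. It read 10.23, 9.45 and 9.59 in the wild-type pools and 10.57 and 10.48 in the knockout pools. The groups did not overlap, and WT pool 1 was again the nearest to the KO pools. The difference was 0.77 (SE 0.20, adjusted p = 0.0795), 0.29 against WT pool 1 alone, and it was called with the prior that follows the mean level (adjusted p = 0.0498).

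Dll1, the Delta ligand of many progenitor tissues, read 8.23, 7.98 and 8.04 in the wild-type pools and 8.77 and 8.43 in the knockout pools. Both KO pools exceeded every WT pool, by 0.19 at the least. The difference was 0.51 (SE 0.18, adjusted p = 0.171), and 0.36 against WT pool 1 alone. The receptor gene Notch2 read 11.06, 10.76 and 10.85 in the wild-type pools and 11.16 and 11.35 in the knockout pools, again without overlap. Its difference was 0.37 (SE 0.17, adjusted p = 0.340), and 0.19 against WT pool 1 alone. Aph1b, a subunit of the gamma-secretase that frees the intracellular domain, differed by 0.47 (SE 0.18, adjusted p = 0.216), and by 0.27 against WT pool 1 alone. Its probes may share signal with the near-identical Aph1c, at 0.19 (SE 0.17), or 0.085 against WT pool 1 alone.

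Lower in KO were, in order of size, Itch, a ubiquitin ligase that acts on Notch, at -0.28 (SE 0.18), the cyclin gene Ccnd1 at -0.22 (SE 0.17) and Myc at -0.14 (SE 0.18), and none of the 3 passed (adjusted p from 0.495 to 0.712). Against WT pool 1 alone Itch was at -0.27 and Ccnd1 at -0.19, while the sign of Myc turned (0.088). Itch read 10.93 to 11.00 in the WT pools, 10.93 in KO pool 2 and 10.44 in KO pool 4, so its difference came from KO pool 4. Rbpj itself, chosen after its value was seen because it carries the signal to the DNA, stood at 0.26 (SE 0.17, adjusted p = 0.496). It read 10.51, 10.34 and 10.26 in the wild-type pools and 10.60 and 10.66 in the knockout pools, without overlap, and was 0.12 higher against WT pool 1 alone.

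**Figure D4:**
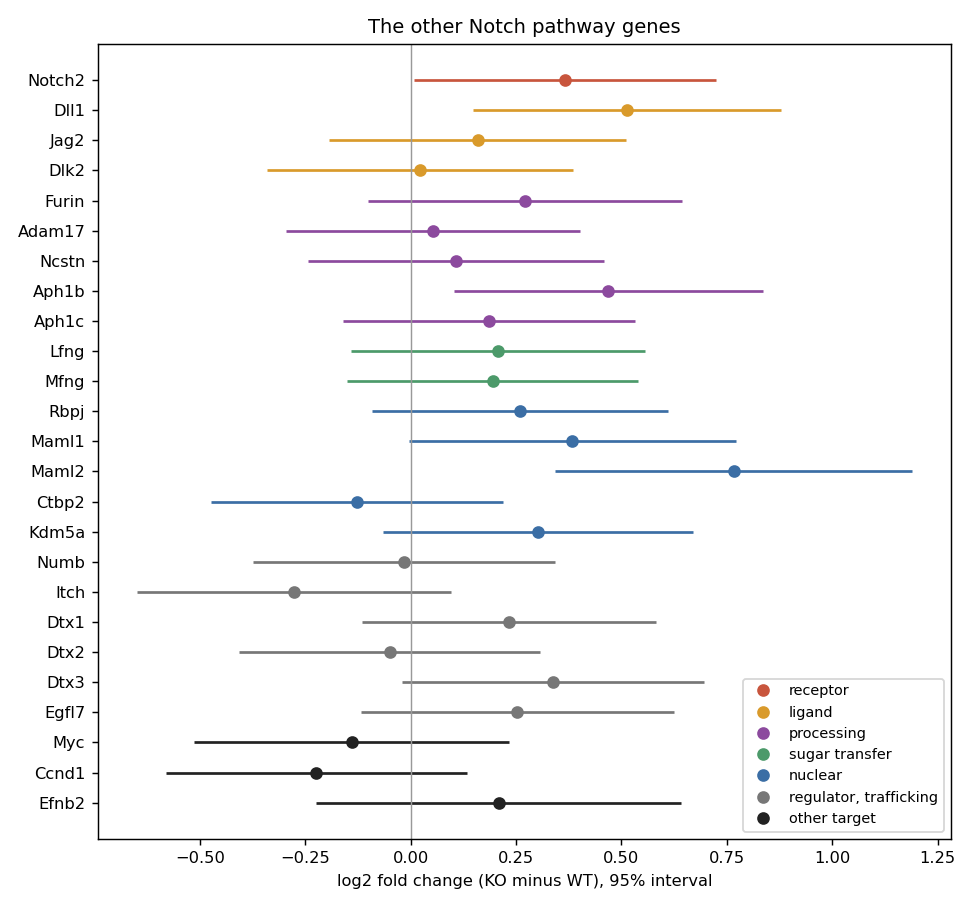
Difference between genotypes (log2 fold change, KO minus WT, horizontal axis) of the 25 other measured genes of the Notch pathway, with the 95% interval of the limma fit, not adjusted for multiple tests; colours give the role. The intervals of Maml2, Dll1, Aph1b and Notch2 lie above 0, and 19 of the 25 points lie to the right of 0.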

How the data were processed

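RNA of each pool was hybridised to 1 Affymetrix whole-transcript array. The authors deposited log2 values that, per the submitters' processing notes, come from RMA; its settings are not given here. RMA equalises array distributions, yet the array medians were not equal. In every probe set the fourth-ranked value exceeded the lowest by at least 0.175, a bound that a filter on spread would leave; such a filter keeps variable genes and raises the prior of limma. Probe sets were named from the platform annotation of 2016 (9411 with 1 symbol, 384 with several, 566 not listed), and 9 of 9 symbols matched RefSeq by gene identifier.

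Genotypes were compared with limma 3.58.1 in R 4.3.3 (lmFit, eBayes, two-sided, no covariates, 3 residual and 17.4 prior degrees of freedom), with Benjamini-Hochberg adjustment over 10361 probe sets and calls at adjusted p below 0.05. Tested on simulated data of 10361 features for KO against WT, the fit recovered 30.8% of changes of 0.585 and 90.8% of changes of 1 (log2), under its own assumptions. The simulated variances were drawn from the prior, and the simulated pools varied independently. These shares therefore do not hold for genes whose pools lay as far apart as those of Hey2 (SE 0.33). P-values set the difference between the groups against an estimate of how far pools of a group lie apart, which can be technical. With 17.4 prior against 3 residual degrees of freedom, that estimate came more from the prior over all probe sets than from the gene's own pools. The number of arrays limits the precision. The Notch genes and lists were chosen with earlier results of these data known. Every Notch gene was named, and of the other pathway genes those at unadjusted p below 0.05 and the 3 largest differences in each direction. Fibroblast and macrophage genes were listed too. In the fibroblast and perineurium list 6 genes were measured (median difference 0.19, or 0.082 against WT pool 1 alone), and in the macrophage list 2 (0.090, or 0.020).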

Additional observations from a re-analysis of the deposited data

How the results depend on the processing

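Differences were recomputed under 11 alternatives: 2 normalizations, 2 variance models, a filter on dim probe sets, each pool left out in turn, and WT pool 1 as the only wild-type pool. The number of probe sets called, 70, became 1 after median centring, 1 after quantile normalization, 0 without moderation, 158 with a prior that follows the mean level and 0 with WT pool 1 alone, and ranged from 0 to 105 when 1 pool was left out. Of the Notch genes 0 were called throughout except 1 (Hey2) under that prior, and of the other pathway genes 0 except 1 (Maml2) under the same prior. Without moderation 0 of 9 Notch genes had an unadjusted p below 0.05, and 498 of all probe sets did. From 6 to 8 of the 9 Notch genes were higher in KO in every alternative. Their median difference, 0.30, was 0.096 with WT pool 1 alone and 0.073 to 0.44 when 1 pool was left out. Signs turned for Notch1 (-0.20 with WT pool 1 alone, -0.025 to 0.22 over single pools left out), Dll4 (-0.13, and -0.035 to 0.18), Hes5 (0.096, and -0.27 to 0.073) and Hes1 (-0.12 to 0.28 over single pools left out). Hey2, Notch3, Jag1, Hey1 and Heyl kept their sign in all 11. The causes of these changes were not tested beyond the pools and settings named. With 1 WT pool, or 1 KO pool after leaving out the other, the lone pool is assumed to vary like the others. No paired analysis was made, because the labels do not say whether any WT and KO pools belong together. Signal over background could not be judged, since only summarised values were used.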

Other observations

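Among the 36 pairs of measured Notch genes, the centred profiles of Notch1 and Dll4 were the closest over the 5 pools, with a root-mean-square difference of 0.067 log2 units, followed by Notch3 and Jag1 (0.118) and Jag1 and Hey1 (0.147). Profiles were not scaled, so this distance takes in how widely a gene varied as well as its pattern. Hey2, with the widest spread, was far from every other gene of the set, at 0.52 from Notch3 and 1.01 from Hes5. Yet Hey2 and Notch3 were both below their means in WT pools 9 and 11 and above them in the other pools. Hes1 and Hes5, which varied little, were 0.258 apart. They lay on opposite sides of their means in WT pool 9 and in both KO pools. These distances are a description of 5 pools, chosen after the values were seen, and no test was made on them.

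Efnb2, the arterial ephrin-B2 gene and a known Notch target, was chosen after its values were seen. It read 10.34, 9.69 and 9.49 in the wild-type pools (1, 9 and 11) and 10.06 and 10.04 in the knockout pools (2 and 4), so that WT pool 1 was the highest of all pools. Its difference was 0.21 (SE 0.21, limma adjusted p = 0.651), and -0.29 against WT pool 1 alone.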
